A study of Mus musculus with 14 samples.

Results

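The 8 genes T, Eomes, Mixl1, Tbx6, Mesp1, Mesp2, Evx1 and Msgn1 encode transcription factors of the primitive streak and were chosen by name, out of 24054 genes in each table. All 8 were measured in each of the 14 libraries, which fall into 6 groups. The con cells carry the Foxa2-Venus-KO allele, in which an H2B-Venus cassette replaces the Foxa2 coding region, on 1 chromosome (Foxa2-Venus-KO/+), and the ko cells carry it on both (Foxa2-Venus-KO/Foxa2-Venus-KO). All con and ko cells derive from IDG3.2 embryonic stem (ES) cells. The d0con and d0ko groups (n = 2 each) were undifferentiated ES cells grown without LIF on mitomycin-treated fibroblast feeders with red fluorescence, and were sorted as Cherry-negative. The d3con and d3ko groups (n = 3 each) had spent 3 days on Wnt3a-secreting feeder cells with 12 ng/ml Activin A, and were sorted as Venus-positive. The d2-FVFn and d2-FVFp groups (n = 2 each) came from line T119, in which a lentiviral TetON construct makes a Foxa2-Venus fusion and both Sox17 alleles carry Cherry. T119 cells were kept on gelatin with LIF and serum, received doxycycline (40 ng/ml, 48 hours), and were separated by sorting into Venus-negative (FVFn) and Venus-positive (FVFp) fractions.

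Day 0 and day 3 differ in feeders, medium and sorted reporter as well as in time, and these cannot be told apart. Replicates 1 and 3 of the con groups were clone C59 and replicate 2 was clone C63, as named in the deposited tables. In the ko groups replicates 1 and 3 were clone C9 and replicate 2 was clone C17, so that each genotype is 2 clones and no clone has both genotypes. Nothing in the labels says whether libraries of 1 clone were separate cultures, and p-values measure only the spread between these libraries. Replicate 1 of d3con and of d3ko had reads of 75 bases and the other 12 libraries reads of 50. Library totals lay between 14142788 and 27278237 expected counts (reads per gene as estimated by RSEM). The targeted gene Foxa2, on chr2:148042877-148046969, had 58.64, 34.81 and 54.47 TPM in d3con and 0.11, 0.15 and 0.19 TPM in d3ko, where TPM is a share of all transcripts, corrected for gene length and scaled to the same total in every library. It had 2.99 and 2.01 TPM in d2-FVFn and 168.57 and 159.81 TPM in d2-FVFp, so that the day 3 and doxycycline libraries followed their labels. At day 0 it had 0.07 to 0.14 TPM in both genotypes, too low to check the genotype of those 4 libraries.

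The primitive streak is the posterior band of the gastrulating embryo where epiblast cells leave the epithelium and become mesoderm or definitive endoderm. Nodal and Wnt3 induce the streak, and Activin A and Wnt3a are given to ES cells in their place. T (Brachyury) and Eomes are T-box factors, of which T is kept in the posterior streak and axial mesoderm while Eomes acts early in the formation of definitive endoderm and cardiac mesoderm. Tbx6, a further T-box factor, and Msgn1, a basic helix-loop-helix (bHLH) factor, promote presomitic mesoderm. Mesp1 and Mesp2 are bHLH factors of cardiac and of segmenting paraxial mesoderm. Mixl1 and Evx1 are homeodomain factors of the streak, Mixl1 being linked to mesendoderm and Evx1 to the posterior streak. Foxa2 itself is a forkhead factor of the anterior streak, definitive endoderm and axial mesoderm.

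The genes lie on 6 chromosomes of GRCm38, the assembly that mm10 names. T spans chr17:8434423-8442496, Eomes chr9:118478186-118486132, Tbx6 chr7:126781483-126785548, Mixl1 chr1:180693043-180697034, Evx1 chr6:52313498-52318389 and Msgn1 chr12:11208382-11208948. Mesp1 on chr7:79792241-79793590 and Mesp2 on chr7:79810727-79813431 point away from each other with 17136 bases between them. Eomes shares exon sequence with the antisense gene Gm33460 and Evx1 with Evx1os. The library kit does not mark strand, so that reads from these pairs cannot be told apart.

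The 250 bases before the RefSeq transcription start (GRCm38.p6) were at hand for 7 of the 8 genes, and Mixl1 had no entry. They were searched on both strands for TCF/LEF letters (CTTTGAA or CTTTGAT, the site of the factors that act downstream of Wnt), T-box letters (TCACACC), Foxh1 letters (TGTGGATT) and forkhead letters (TGTTTAC or TATTTAC). The TCF/LEF letters were found once for T, on the strand opposite to the gene 235 to 229 bases before the start. Mesp1 held them at 73 to 67 bases (opposite strand) and 31 to 25 bases (strand of the gene) before its start. Msgn1 held them at 203 to 197 bases (opposite strand) and 143 to 137 bases (strand of the gene). Of 32851 promoters of the same length 7.48% held these letters. None of the 7 windows held the T-box, Foxh1 or forkhead letters, which 3.33%, 0.718% and 5.76% of promoters held. The windows with TCF/LEF letters are shown because Wnt3a was part of the day 3 treatment, and Mesp2 beside Mesp1 as its neighbour without them. The search did not use expression, and a match is a description of the letters only. Each runs 5′ to 3′ on the strand of its gene, with the matched letters or their reverse complement in capitals: T on chr17:8434173-8434422 (plus strand), Mesp1 on chr7:79793591-79793840 (minus strand), Msgn1 on chr12:11208949-11209198 (minus strand) and Mesp2 on chr7:79810477-79810726 (plus strand).
T: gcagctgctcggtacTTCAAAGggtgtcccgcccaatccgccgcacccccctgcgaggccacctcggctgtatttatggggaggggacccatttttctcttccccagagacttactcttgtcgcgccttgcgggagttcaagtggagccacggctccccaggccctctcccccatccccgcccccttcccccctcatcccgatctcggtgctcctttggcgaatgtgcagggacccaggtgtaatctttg
Mesp1: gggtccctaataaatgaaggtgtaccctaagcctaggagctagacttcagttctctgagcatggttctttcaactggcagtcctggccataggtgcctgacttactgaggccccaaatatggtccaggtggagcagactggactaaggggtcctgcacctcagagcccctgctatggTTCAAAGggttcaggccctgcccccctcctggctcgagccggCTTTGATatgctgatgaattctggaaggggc
Msgn1: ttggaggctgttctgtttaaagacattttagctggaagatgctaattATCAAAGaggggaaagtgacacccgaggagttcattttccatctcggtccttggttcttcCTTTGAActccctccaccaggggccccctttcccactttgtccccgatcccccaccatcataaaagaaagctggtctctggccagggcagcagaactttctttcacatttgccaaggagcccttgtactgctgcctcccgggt
Mesp2: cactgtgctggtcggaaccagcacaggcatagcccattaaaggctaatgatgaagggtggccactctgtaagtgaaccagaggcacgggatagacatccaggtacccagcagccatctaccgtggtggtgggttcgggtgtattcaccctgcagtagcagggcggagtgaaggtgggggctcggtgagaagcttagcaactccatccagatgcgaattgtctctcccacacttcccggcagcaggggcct

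At day 0 the highest of the 8 genes was Eomes, with 4.23 and 4.53 TPM in d0con and 4.53 and 3.7 TPM in d0ko, above Mesp2, the next in order, in every library of the same group. Mesp2 had 3.77 and 1.67 TPM in d0con and 2.9 and 1.72 TPM in d0ko. Evx1 followed with 1.17 and 2.13 TPM in d0con and 2.11 and 1.29 TPM in d0ko, and overlapped with Mesp2. T, Mixl1, Tbx6 and Mesp1 all lay between 0.1 and 0.58 TPM in the 4 day 0 libraries, and Msgn1 had 1 read in all of them. In d3con the order by mean TPM was Eomes, T, Mixl1, Mesp1, Evx1, Tbx6, Mesp2 and Msgn1. Of these neighbours only Mixl1 and Mesp1, Evx1 and Tbx6, and Mesp2 and Msgn1 were apart in every library. In d3ko the order by mean was T, Mixl1, Eomes, Mesp1, Evx1, Tbx6, Mesp2 and Msgn1, and no neighbours were apart. In d2-FVFn the order by mean began with Mesp2 and Eomes, and in d2-FVFp with Eomes and Mixl1.

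**Figure D1:**
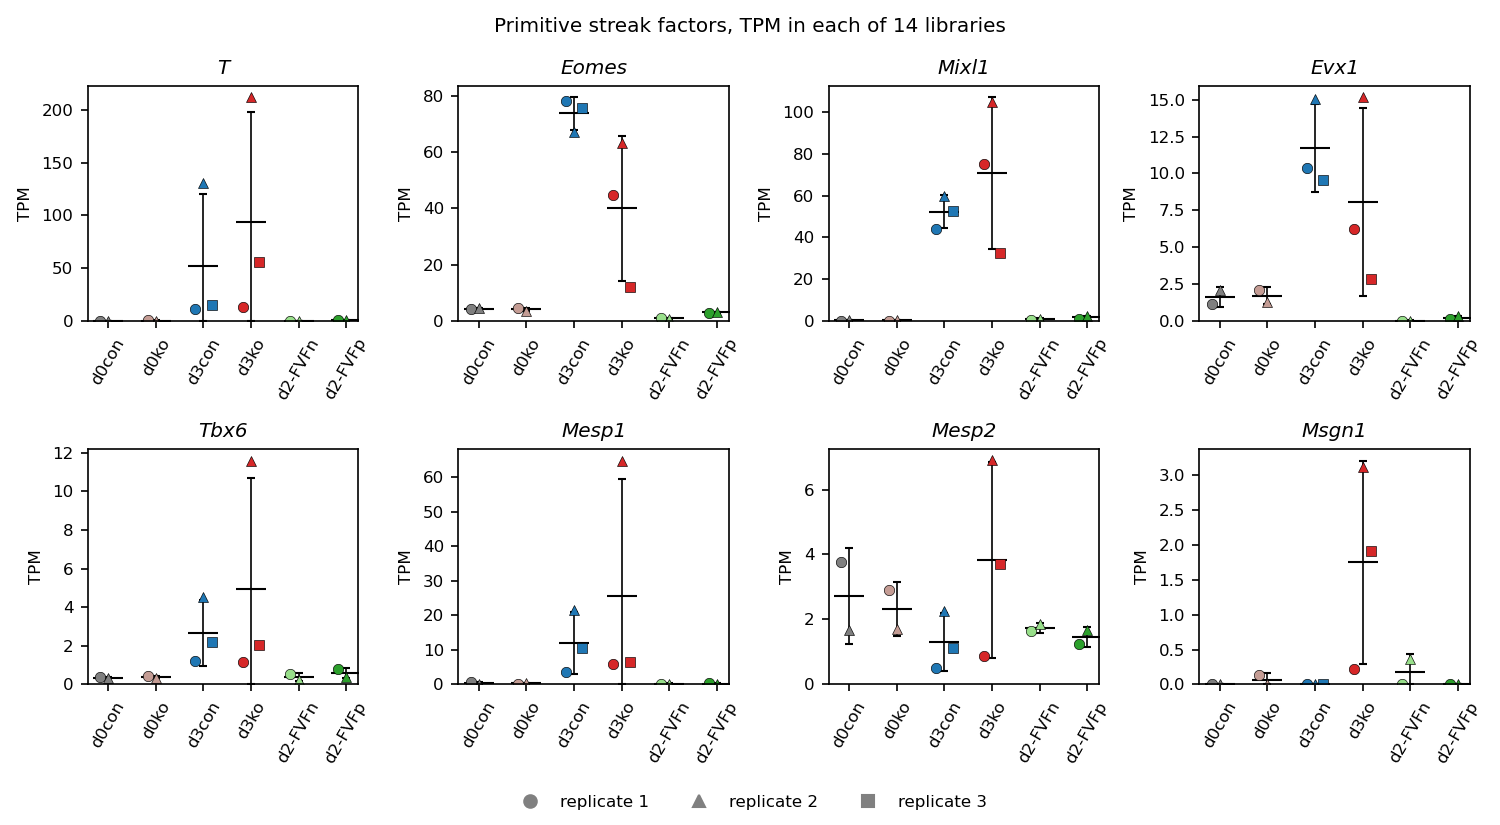
TPM of each of the 8 genes (vertical axis, own scale per panel) in the 14 libraries by group, with the group mean (horizontal line) and SD (bar, drawn no lower than 0), and marker shapes for replicates 1, 2 and 3. T reached 211.95 TPM in d3ko replicate 2 but 13.74 TPM in replicate 1, whereas Eomes in d3con stayed between 67.3 and 78.33 TPM.

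The comparison of d3con with d0con asks how these genes respond to endoderm differentiation with 1 functional Foxa2 allele. T, Eomes, Mixl1, Mesp1 and Evx1 rose in d3con, with T and Mixl1 starting below 0.5 TPM. A gene was called at an adjusted p under 0.05 and a change of more than 1 log2 unit by edgeR's quasi-likelihood test with Benjamini-Hochberg adjustment over 13899 genes. By this rule 5 of the 7 genes tested were higher and 0 lower, where 20.6% of all genes tested were higher and 14.6% lower. The median log2 fold change of the 7 was 3.88 against 0.07 for all genes. Msgn1 had too few reads for the test and was at 0 in all d0con and d3con libraries. In TPM, 6 of the 8 genes had every d3con library above every d0con library, as had 45.5% of all genes tested, and Mesp2 and Msgn1 overlapped.

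Among the T-box factors, Eomes was even at day 3, with 78.33, 67.3 and 75.85 TPM in d3con, and was 3.88 log2 units above d0con (SE 0.61, edgeR adjusted p = 0.0011). T had 0.17 and 0.43 TPM in d0con and 11.39, 130.58 and 15.49 TPM in d3con, with replicate 2 far above the others. Its log2 fold change was 7.22 (SE 1.82, edgeR adjusted p = 0.00964). Tbx6, which lies downstream of T in paraxial mesoderm, went from 0.36 and 0.34 TPM to 1.21, 4.53 and 2.22 TPM. The groups did not overlap, but the log2 difference of 2.67 (SE 1.06) missed the threshold with an edgeR adjusted p of 0.0599, while DESeq2 on the same libraries gave 0.0192.

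The homeobox gene Mixl1 had 0.19 and 0.38 TPM in d0con and 44.14, 59.97 and 52.66 TPM in d3con. This rise, 7.29 log2 units (SE 0.62, edgeR adjusted p = 0.00015), had the smallest adjusted p of the 7 genes. Evx1 rose to 10.4, 15.07 and 9.54 TPM, by 2.61 log2 units (SE 0.67, edgeR adjusted p = 0.0107). Of the bHLH genes, Mesp1 went from 0.58 and 0.1 TPM to 3.7, 21.48 and 10.4 TPM, a rise of 4.83 log2 units (SE 1.49, edgeR adjusted p = 0.0227). Mesp2, 17136 bases away, did not follow it, with 0.49, 2.27 and 1.13 TPM in d3con inside or below its day 0 range and a log2 difference of -1.30 (SE 0.83, edgeR adjusted p = 0.21). Some of these calls were lost with d0con replicate 1 or d0con replicate 2 left out, where fewer of all genes were called as well. The lone day 0 library was then assumed to vary like the other groups. In these fits the log2 fold changes were 6.68 and 7.99 for T and 6.62 and 4.09 for Mesp1.

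The comparison of d3ko with d0ko asks the same of cells without Foxa2. Here 6 of the 7 tested genes rose, namely T, Eomes, Mixl1, Tbx6, Mesp1 and Evx1, and 0 fell, where 11.6% of all genes tested were higher and 5.72% lower. The median log2 fold change of the 7 was 3.52 against 0.07 for all genes. T went from 0.55 and 0.19 TPM to 13.74, 211.95 and 55.69 TPM (log2 fold change 7.73, SE 1.79, edgeR adjusted p = 0.0129). Mixl1 went from 0.25 and 0.31 TPM to 74.97, 104.74 and 32.48 TPM (log2 fold change 7.80, SE 0.62, edgeR adjusted p = 0.000486). For both genes every d3ko library lay more than 10 TPM above the day 0 values.

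Eomes had 44.83, 63.2 and 12.05 TPM in d3ko, with replicate 3 the lowest, and was 3.11 log2 units above d0ko (SE 0.58, edgeR adjusted p = 0.00587). Mesp1 went from 0.13 and 0.45 TPM to 5.87, 64.8 and 6.48 TPM (log2 fold change 6.24, SE 1.55, edgeR adjusted p = 0.0165). Tbx6 and Evx1 were closer to the threshold, with log2 fold changes of 3.52 (SE 1.07) and 2.06 (SE 0.66) and edgeR adjusted p of 0.0358 and 0.0412. Tbx6 had 0.42 and 0.33 TPM in d0ko and 1.18, 11.59 and 2.02 TPM in d3ko, and Evx1 6.23, 15.17 and 2.85 TPM in d3ko. Mesp2 again was not called, with 0.86, 6.91 and 3.71 TPM in d3ko on either side of its day 0 values (log2 fold change 0.54, SE 0.83, edgeR adjusted p = 0.65). In TPM 7 of the 8 genes had no overlap, as had 36.6% of all genes tested in this direction. Among the 7 was Msgn1, which had too few reads to be tested. It was apart only because 1 read gave 0.22 TPM in d3ko replicate 1 and 0.13 TPM in d0ko replicate 1.

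Several of these calls were lost when a library was left out. Most were lost without d0ko replicate 1 or without d0ko replicate 2, fits that leave 1 d0ko library and in which fewer of all genes were called as well. The log2 fold changes there were 8.71 and 7.18 for T and 3.28 and 2.95 for Eomes. Evx1 was also lost without d3con replicate 1 or d3ko replicate 1 (edgeR adjusted p = 0.0573 and 0.0574), and Tbx6 without d3ko replicate 2 (edgeR adjusted p = 0.0609). In an edgeR fit of the d0ko and d3ko libraries alone 3 of the 7 genes were called, where 6.52% of all genes were higher. In an edgeR test against a 2-fold change 2 of them were called, where 2.49% of all genes were higher.

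**Figure D2:**
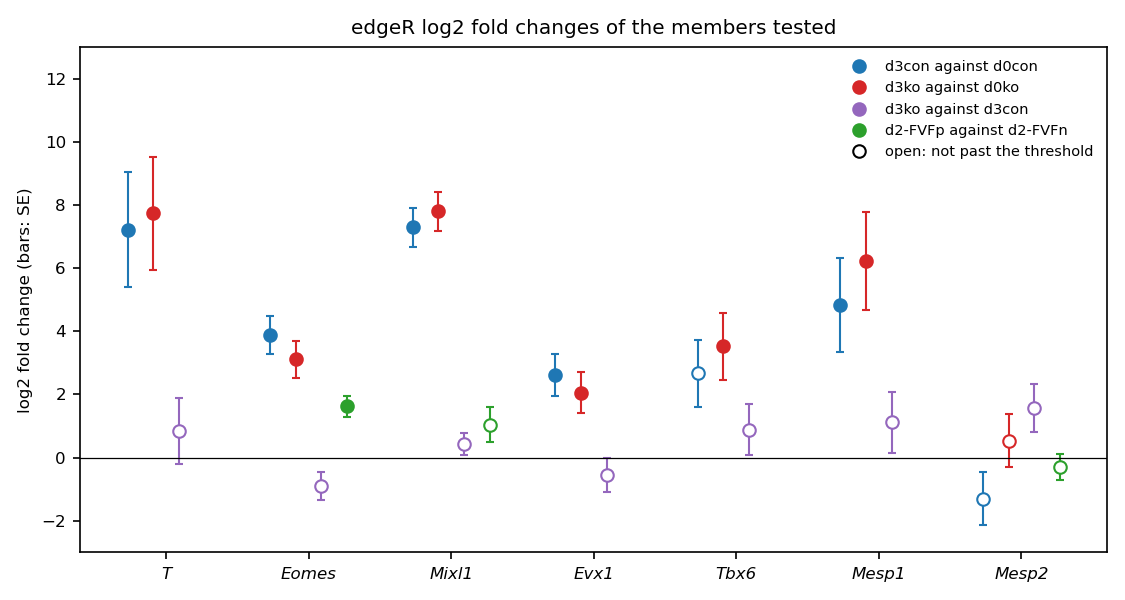
edgeR log2 fold changes (vertical axis, bars are SE) of the 7 genes tested among the day 0 and day 3 libraries, by comparison (colours), with 3 of them also tested in the doxycycline libraries. Filled circles passed the threshold and open circles did not; the circles for day 3 over day 0 sit between 2.06 and 7.80 wherever they are filled, and all circles for d3ko against d3con are open.

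The comparison of d3ko with d3con asks whether loss of the second Foxa2 allele changes these genes in Venus-positive cells. None of the 7 tested genes was called by edgeR, by DESeq2 on the same libraries or by limma on log2(TPM + 1). An unadjusted edgeR p under 0.05 was found for 0 of the 7 and for 3878 of all 13899 genes. Over all genes 4.75% were called higher and 3.51% lower, so that 0 of 7 called is no result about these genes. The shares of all genes depended on the libraries and the fit. They were 7.17% and 4.9% with DESeq2, 0.0518% and 0.444% with only d3con and d3ko fitted by edgeR, and 0.0652% and 0.514% without d3con replicate 3. With only d3con and d3ko fitted by DESeq2 and tested against a 2-fold change they were 1.2% and 1.11%. Without d3con replicate 1 they were 0.552% and 1.04%, without d3ko replicate 1 they were 1.87% and 1.72%, and without d3ko replicate 3 they were 1.8% and 1.96%. With a block by clone 0 genes were higher and 7 lower. As no clone has both genotypes, that fit compares only the clones of replicate 2 (C17 and C63) and not the genotypes as a whole. Without replicate 1 of both genotypes 0 genes were higher and 1 lower, whereas without d3ko replicate 2 the shares were 9.27% and 7.02%. Because the libraries within a group differed widely, these differences were measured poorly for most of the genes. In bulk samples fewer cells that express a gene and less RNA per cell cannot be told apart.

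Eomes was the gene that leaned lowest in d3ko. All 3 d3ko libraries lay below all 3 d3con libraries in TPM, as did 12.3% of all genes tested. The log2 fold change was -0.90 (SE 0.45, 95% interval -1.92 to 0.13, edgeR adjusted p = 0.235). T had a log2 fold change of 0.84 with an interval of -1.49 to 3.17, which spans a fall as well as a rise (SE 1.04, edgeR adjusted p = 0.643). Mixl1 was measured best, at 0.43 (SE 0.35, 95% interval -0.35 to 1.22, edgeR adjusted p = 0.459).

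Tbx6 and Mesp1 were at 0.89 (95% interval -0.91 to 2.69) and 1.12 (95% interval -1.06 to 3.30), with edgeR adjusted p of 0.511 and 0.494. Without d3ko replicate 2 the log2 fold changes turned to -0.57 for T, -0.69 for Tbx6 and -0.91 for Mesp1. Evx1 was at -0.55 (95% interval -1.75 to 0.66, edgeR adjusted p = 0.55). Mesp2 was at 1.57 (SE 0.76, 95% interval -0.14 to 3.28, edgeR adjusted p = 0.216), with overlap between the groups.

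Msgn1, the presomitic factor, was the only one of the 8 genes with every d3ko library above every d3con library, as were 11.5% of all genes tested. It had 1, 16 and 15 reads in d3ko replicates 1, 2 and 3 and 0 in the d3con libraries. Against a floor of 3 reads over the d3con group, the 32 reads of d3ko were 11.1-fold higher in CPM. The floor allows for counting error in the 0 of d3con only. Counting error in the 32 reads and the spread between libraries are not covered. It did not reach 1 CPM in 2 libraries and so was not among the 13899 genes. In a fit without that filter its edgeR adjusted p was 0.0608.

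At day 0 the genotypes overlapped for all 8 genes, while 28.9% of all genes tested had both d0ko libraries above and 14.9% below both d0con libraries. The log2 fold changes of d0ko over d0con lay between -0.30 for Mesp1 and 0.32 for T, each with an edgeR adjusted p of 1.0. Of all 13899 genes edgeR called 0, with 195 at an unadjusted p under 0.05, DESeq2 called 1 and limma 0. The interaction of genotype and day, which tests whether the rise from day 0 to day 3 differed between ko and con, passed for none of the 7 genes by edgeR. Its log2 values ranged from -0.77 for Eomes to 1.84 for Mesp2, with edgeR adjusted p between 0.548 and 0.963. Over all genes edgeR called 0 interactions, with 1840 at an unadjusted p under 0.05, whereas DESeq2 called 299 higher and 266 lower, none of them among the 7, and limma 12 lower.

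The day 3 libraries of 1 group differed more from each other in several of these genes than the genotypes did. T spanned 11.5-fold from the lowest to the highest library in d3con and 15.4-fold in d3ko. Eomes spanned 1.16-fold in d3con and 5.24-fold in d3ko. Replicate 2, the only library of its clone in each day 3 group, was the highest library in d3ko for all 8 genes and in d3con for 6 of them, with Eomes and Msgn1 as the exceptions. Its clone and any other difference between replicate numbers cannot be told apart here. T was 9.72-fold (d3con) and 6.11-fold (d3ko) higher in replicate 2 than in the mean of the other libraries of its group. For Mesp1 these ratios were 3.05 and 10.5, for Tbx6 2.64 and 7.24, and for Eomes 0.873 and 2.22.

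The ratio of T to Eomes, both in TPM, separates a T-rich from an Eomes-rich balance. It was 0.145, 1.94 and 0.204 in d3con and 0.306, 3.35 and 4.62 in d3ko. The log2 ratio averaged -1.37 ± 2.03 over the d3con and 0.75 ± 2.14 over the d3ko libraries (SD, n = 3 per group, exact two-sided permutation p = 0.2). The ratio of Mixl1 to Eomes was steadier, at 0.564, 0.891 and 0.694 in d3con and 1.67, 1.66 and 2.7 in d3ko. On the log2 scale it averaged -0.51 ± 0.33 over d3con and 0.97 ± 0.4 over the d3ko libraries (SD, n = 3 per group), and the groups did not overlap. The exact two-sided permutation p of 0.1 is the smallest that 3 against 3 libraries allow. The ratio of Mesp1 to Mesp2 was 7.55, 9.46 and 9.2 in d3con and 6.83, 9.38 and 1.75 in d3ko (exact two-sided permutation p = 0.3). These 3 ratios were chosen with earlier results known, and their p-values are not adjusted.

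**Figure D3:**
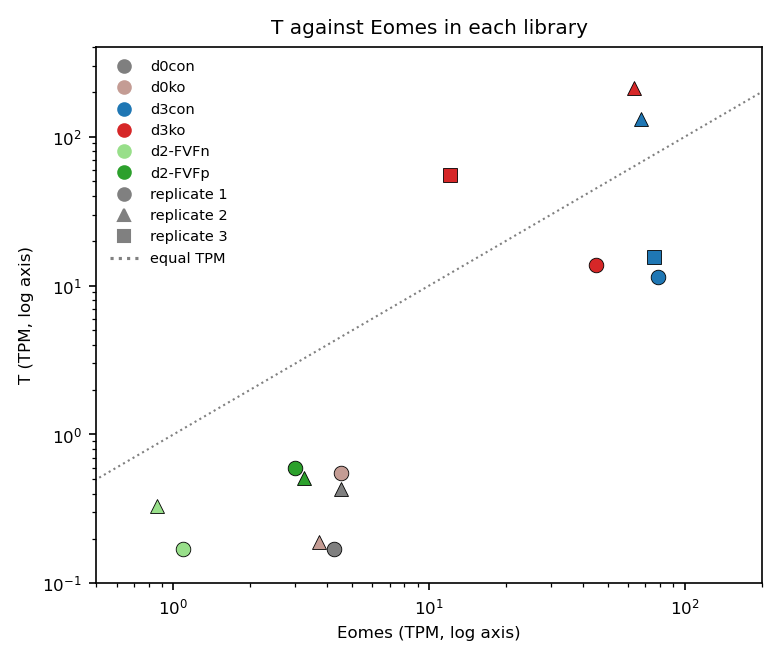
T (vertical axis, TPM, log scale) against Eomes (horizontal axis, TPM, log scale) in the 14 libraries, with colours for groups, shapes for replicates and a dotted line of equal TPM. Replicate 2 of d3con and replicates 2 and 3 of d3ko lie above the line, while every day 0 and doxycycline library lies below it.

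Pluripotency markers differed between these same libraries. The summed level of 7 markers (Pou5f1, Sox2, Nanog, Zfp42, Klf4, Esrrb and Dppa5a) was 13800 to 15700 TPM at day 0 and 661, 987 and 563 TPM in d3con. In d3ko it was 15500, 2680 and 17400 TPM for replicates 1, 2 and 3. All 7 markers were at 1 TPM or more in every library, and 5 of the 7 were called higher in d3ko than in d3con, where 4.75% of all genes were. That count was 3 without d3con replicate 1. It was 0 without d3con replicate 3, without replicate 1 or replicate 3 of both genotypes, or with only these groups fitted by edgeR. It was also 0 with a block by clone, which compares only the clones of replicate 2. DESeq2 called 6 of the 7 higher on the same libraries as the main fit (7.17% of all genes). With only these groups fitted, DESeq2 against a 2-fold change called 5 (1.2% of all genes). The median log2 fold change of the 7 markers stayed between 2.55 and 4.55. Dppa5a, with group means of 10500.0 TPM in d3ko and 460.0 TPM in d3con, made up the largest part of the sum. The d3ko library with the highest T, Mesp1 and Tbx6, replicate 2, had the lowest marker sum, and replicate 3, with the lowest Eomes, Mixl1 and Evx1, the highest. Replicate 1, with the lowest T, Tbx6, Mesp1, Mesp2 and Msgn1, lay between them at 15500 TPM. In d3con the order of the sums was the other way, as replicate 2, with the highest T, Mesp1 and Tbx6, had the highest marker sum (987 TPM). This order need not hold for each marker. In d3con Dppa5a spanned 399.86 to 536.09 TPM, against 59.66 to 318.99 TPM for Pou5f1 and 40.19 to 246.09 TPM for Nanog. The summed level of 10 fibroblast markers of the feeders was 326, 73.5 and 241 TPM in d3con and 341, 168 and 381 TPM in d3ko, with 7 to 10 of 10 at 1 TPM or more. At day 0 it was 16.8 and 19.6 TPM in d0con and 46.6 and 159 TPM in d0ko, without overlap, and replicate 2 was the lowest at day 3 in both genotypes. The part of these cells in the values of the 8 genes was not tested.

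The comparison of d2-FVFp with d2-FVFn asks what Foxa2 induces in ES cells that were given neither Activin A nor Wnt3a feeders. Eomes rose, from 1.09 and 0.86 TPM in d2-FVFn to 2.98 and 3.23 TPM in d2-FVFp, with 35 and 33 reads against 82 and 105. Its log2 fold change was 1.63 (SE 0.33, edgeR adjusted p = 0.0194 over 12943 genes). Of the 8 genes, 3 passed the filter on low counts and 1 was called higher, where 6.96% of all genes tested were higher and 1.47% lower. Even the induced level stayed below the 3.7 to 4.53 TPM of Eomes in the day 0 libraries of the other line, a difference across lines and cultures that was not tested. Without d2-FVFn replicate 1 or d2-FVFn replicate 2 Eomes was not called (edgeR adjusted p = 0.0707 and 0.106).

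Mixl1 had 0.51 and 1.09 TPM in d2-FVFn and 1.18 and 2.26 TPM in d2-FVFp, without overlap but with an edgeR adjusted p of 0.234 for a log2 fold change of 1.04 (SE 0.55). Mesp2 did not differ beyond its error, at 1.63 and 1.85 TPM against 1.25 and 1.67 TPM (log2 fold change -0.29, SE 0.42, edgeR adjusted p = 0.667). T stayed low in all 4 libraries, with 3 and 7 reads in d2-FVFn and 9 and 9 in d2-FVFp (0.17, 0.33, 0.6 and 0.51 TPM). Evx1 had 0 and 1 reads in d2-FVFn and 3 and 8 in d2-FVFp. Tbx6 and Mesp1 were under 1 TPM throughout, and Msgn1 had 2 reads in d2-FVFn replicate 2 and 0 in the others. In TPM T, Eomes, Mixl1 and Evx1 had every d2-FVFp library above every d2-FVFn library, as had 35.1% of all genes tested.

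Eomes is also a gene of trophoblast stem cells. The summed level of 7 trophoblast markers was 42.8 to 59.7 TPM in d2-FVFn and 128 to 183 TPM in d2-FVFp, with 3 to 4 of 7 at 1 TPM or more. Krt7, an epithelial keratin, held most of this sum in d2-FVFp, with 84.89 and 154.88 TPM against 8.16 and 8.23 TPM in d2-FVFn. Gata3 had means of 0.54 TPM in d2-FVFn and 1.47 TPM in d2-FVFp (log2 fold change 1.42, edgeR adjusted p = 0.132), Tfap2c 30.2 and 24.0 TPM, and Ascl2 11.1 and 9.4 TPM. Esx1 had 1.11 and 0.8 TPM. Tpbpa was at 0 in all 4 libraries and Elf5, at 0.05 to 0.11 TPM in d2-FVFn, at 0 in d2-FVFp. Cdx2, listed with the posterior streak genes and not among these 7 markers, had means of 0.09 TPM in d2-FVFn and 7.37 TPM in d2-FVFp (log2 fold change 6.1, edgeR adjusted p = 0.00262). On its list 2 of 11 genes tested were higher in d2-FVFp and 2 lower (6.96% and 1.47% of all genes). The trophoblast sums reached at most 137 TPM in d3con and 103 TPM in d3ko. The sums of 7 primitive endoderm markers were 255 to 529 TPM in d3con and 173 to 349 TPM in d3ko, with Afp at 0 in both. They were 171 to 180 TPM in d2-FVFn and 162 to 239 TPM in d2-FVFp, mostly Sparc (means of 162.0 and 184.0 TPM). Of the 5 tested there, 1 was higher and 0 lower (6.96% and 1.47% of all genes). That was Gata6, with means of 0.145 and 5.72 TPM (log2 fold change 5.19, edgeR adjusted p = 0.00148). Afp had 1 read in d2-FVFn and 19 in d2-FVFp. The part of trophoblast or primitive endoderm cells in the values of Eomes was not tested.

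The 8 genes fell into patterns that were closer for some pairs than for others. The Pearson r of log2(TPM + 1) is given over all 14 libraries and over the 6 day 3 libraries, with no test, since libraries share clones and the day 0 to day 3 step alone gives a high r. T and Eomes had an r of 0.84 over 14 libraries and -0.12 over the 6 of day 3. T and Mesp1 had 0.97 and 0.86, and Tbx6 and Mesp1 0.96 and 0.99. Eomes and Evx1 had 0.97 and 0.88. Mesp2 had its highest r over 14 libraries with Msgn1 (0.72 and 0.89), a gene with few reads. Over the 6 of day 3 it was as close to T (0.33 and 0.9), Tbx6 (0.47 and 0.85) and Mesp1 (0.34 and 0.8), but not to Eomes (-0.05 and -0.35). In words, T, Tbx6 and Mesp1 shared their high values in replicate 2, whereas Eomes and Evx1 shared their low value in d3ko replicate 3.

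Among 11464 genes the pattern most like T was that of Aplnr, the apelin receptor of early mesoderm, with an r of 0.98 over 14 libraries and 0.91 over day 3. Aplnr was also the closest to Mesp1 (0.99 and 0.97). Closest to Eomes was Tgfb1, which encodes the growth factor TGF-beta 1 (0.99 and 0.98), and closest to Evx1 was Csk, a kinase that inhibits Src (0.98 and 0.91). The gene 5730457N03Rik was among the 3 closest for both Eomes (0.98 and 0.93) and Evx1 (0.97 and 0.97). Mixl1 was closest to Rftn1 (0.99 and 0.79), and Tbx6 to the potassium channel gene Kcnc1 (0.98 and 0.97). For Mesp2 the values were lower, with Pmf1 (0.87 and 0.91) and the Nodal co-receptor gene Tdgf1 (0.87 and 0.92) first. Msgn1, with few reads, was closest to Crh (0.92 and 0.93).

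The other genes of the pathway were counted in lists by role, each read against the shares of all genes tested that were called. Of the 11 streak-inducing signals, all tested, 4 rose and 3 fell in d3con over d0con (20.6% and 14.6% of all genes). Fgf8, a growth factor of the streak, went from a mean of 0.485 to 570.0 TPM (log2 fold change 10.08, edgeR adjusted p = 0.000335). Cfc1, a Nodal co-receptor, went from 1.24 to 387.0 TPM (log2 fold change 8.07, edgeR adjusted p = 0.000781). Fgf4 and Gdf3, growth factors of ES cells, fell by 5.40 and 5.29 on the log2 scale. In d3ko over d0ko 4 of the 11 rose and 2 fell (11.6% and 5.72% of all genes), with Fgf8 and Cfc1 higher and Gdf3 and Bmp4 lower. Between the genotypes at day 3, Fgf4 (5.01), Gdf3 (3.27) and Bmp4 (2.49) were higher in d3ko by these log2 fold changes and Cfc1 (-3.34) was lower (4.75% and 3.51% of all genes). None of the 11 was called without replicate 1 or replicate 3 of both genotypes, without d3con replicate 3 or with only d3con and d3ko fitted by edgeR. None was called with a block by clone either, which compares only the clones of replicate 2. With only d3con and d3ko fitted, DESeq2 against a 2-fold change called 2 higher and 1 lower (1.2% and 1.11% of all genes). Wnt3, which induces the streak, was not called between them, with means of 30.4 ± 7.56 TPM (d3con) and 25.8 ± 19.9 TPM (d3ko), as SD over 3 libraries each.

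Of 11 signal transducers 6 rose in d3con (20.6% of all genes) and 2 in d3ko (11.6% of all genes) over day 0, the latter near the share of all genes. Between the genotypes 0 of the 11 were called, which at 4.75% and 3.51% of all genes is no result about the list. Foxh1, the DNA-binding partner of Smads in Nodal signalling, rose from a mean of 103.0 to 312.0 TPM in con (log2 fold change 1.39, edgeR adjusted p = 0.00319) and from 93.0 to 220.0 TPM in ko (1.07, edgeR adjusted p = 0.0183). Of 14 other T-box genes 8 were tested. Tbx3, which is also expressed in ES cells, was higher in d3ko than in d3con, with means of 54.5 ± 30.9 TPM and 5.64 ± 0.997 TPM (SD, n = 3 each, log2 fold change 3.27, edgeR adjusted p = 0.0107). It was also higher in d2-FVFp than in d2-FVFn (log2 fold change 1.88, edgeR adjusted p = 0.0124).

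Of the 12 anterior streak and endoderm targets, all rose in d3con over d0con (20.6% of all genes) and 7 rose in d3ko over d0ko (11.6% of all genes). Between the genotypes 7 of the 12 were lower in d3ko than in d3con (3.51% of all genes), with a median log2 fold change of -2.24 against 0.02 for all genes. Sox17, an endoderm factor, went from 101.0 ± 34.9 TPM in d3con to 1.37 ± 0.678 TPM with both alleles lost (SD, n = 3 per group, log2 fold change -6.24, edgeR adjusted p = 0.00226). Foxa1, a close relative of Foxa2, had 19.0 ± 10.3 TPM and 0.103 ± 0.0306 TPM (log2 fold change -7.52, edgeR adjusted p = 0.00349). Of 8 tested in the doxycycline libraries 6 were higher in d2-FVFp and 1 lower (6.96% and 1.47% of all genes), Gata6 and Chrd being higher and Otx2 lower. The count of 7 lower at day 3 was 0 without replicate 1 of both genotypes, 1 without replicate 3 of both, 3 with only d3con and d3ko fitted by edgeR, and 12 without replicate 2 of both. It was 5 with only d3con and d3ko fitted by DESeq2 and tested against a 2-fold change (1.11% of all genes). With a block by clone, which compares only the clones of replicate 2, it was 0. It was 4 without d3con replicate 1 or d3ko replicate 1, 3 without d3con replicate 3 and 12 without d3ko replicate 2, while the median stayed between -2.96 and -1.82. Sox17 was called in 21 and Foxa1 in 20 of 23 alternatives. Whether this list and the 8 genes differ from each other was not tested.

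Of 16 posterior streak and Wnt target genes 13 were tested. In d3con over d0con 2 rose and 3 fell, near the 20.6% and 14.6% of all genes. Sp5, a direct Wnt target, was one of the risers, going from a mean of 4.71 to 74.9 TPM (log2 fold change 3.80, edgeR adjusted p = 0.00115). Cdx1, a posterior homeobox gene, fell in d3con by 4.12 on the log2 scale and was higher in d3ko than in d3con, with 22.5 ± 23.3 TPM against 0.51 ± 0.554 TPM (SD, n = 3 each, log2 fold change 5.49, edgeR adjusted p = 0.0168). In all 2 of the 13 were higher and 0 lower in d3ko than in d3con (4.75% and 3.51% of all genes). Cdx1 was called here in 16 of 23 alternatives. Of 17 presomitic mesoderm genes 11 were tested, of which 5 rose and 2 fell in con (20.6% and 14.6% of all genes), and 5 rose and 1 fell in ko (11.6% and 5.72% of all genes). Rspo3, a secreted Wnt agonist, went from 0.035 to 14.4 TPM in con and from 0.16 to 31.4 TPM in ko. Tcf15, a bHLH factor of somites that ES cells also express, fell in both, by 5.47 and 2.18 on the log2 scale. Between the genotypes at day 3, 2 of the 11 were higher in d3ko, Tcf15 among them (log2 fold change 2.56, edgeR adjusted p = 0.0417), and 1 lower (4.75% and 3.51% of all genes). Tcf15 was called in 8 of 23 alternatives.

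Of 12 early cardiac and blood mesoderm genes 10 were tested, of which 7 rose in con (20.6% of all genes) and 5 in ko (11.6% of all genes). Between the genotypes 0 of the 10 were called, no result about the list at 4.75% and 3.51% of all genes. Aplnr had means of 33.7 ± 38.2 TPM (d3con) and 50.5 ± 69.1 TPM (d3ko), with a wide spread (SD over 3 libraries each) like that of T. Pdgfra, a receptor of early mesoderm, rose in con from 0.17 to 17.5 TPM (log2 fold change 6.43, edgeR adjusted p = 0.00319) and in ko from 0.58 to 20.3 TPM (4.96, edgeR adjusted p = 0.0121). Kdr, the VEGF receptor of blood and vessel progenitors, rose in ko from 0.265 to 22.5 TPM (log2 fold change 6.23, edgeR adjusted p = 0.00208) and in con from 0.22 to 7.0 TPM (4.79, edgeR adjusted p = 0.00205).

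**Figure D4:**
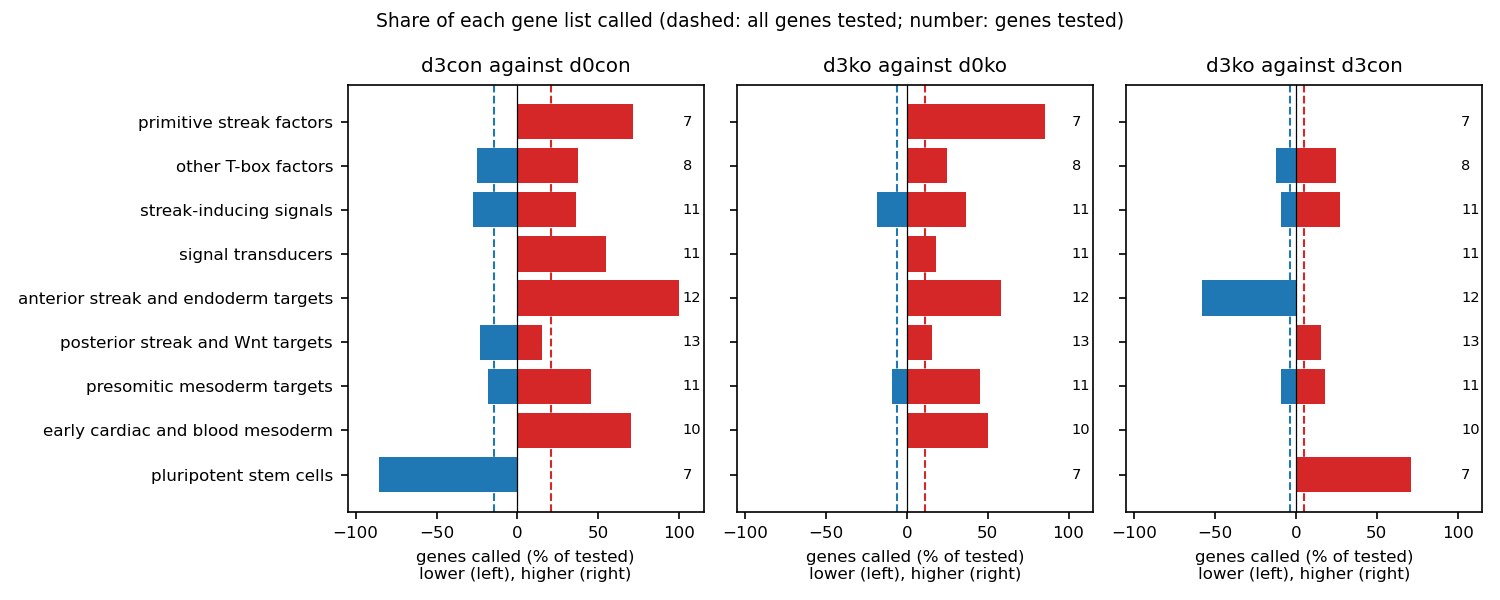
Share of the tested genes of each list that was called higher (red, to the right) or lower (blue, to the left) by edgeR in 3 comparisons, with the number tested at the right and dashed lines at the shares over all genes. For the primitive streak factors the bars reach 5 of 7 in d3con over d0con and 6 of 7 in d3ko over d0ko. They have no bar between the genotypes, which at 4.75% and 3.51% of all genes is no result about them. Of the anterior streak and endoderm targets 7 of 12 were lower there.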

How the data were processed

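Low-input RNA-seq was measured in 14 libraries, made with SMART-Seq v4 and quantified by the authors with RSEM after STAR alignment to mm10. The versions of both are not given in the sources used here. The expected counts that were deposited are estimates per gene, which share reads that match several genes, and the deposited TPM values were scaled by the authors for gene length and library total. For the 8 genes a count was fractional in at most 5 of 14 libraries, by at most 0.46 reads.

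Groups and replicate numbers came from the sample titles, clones from the names of the deposited tables. Counts were rounded and scaled with TMM. The 10 day 0 and day 3 libraries were fitted together, with no covariate, and the 4 doxycycline libraries on their own, and tested by quasi-likelihood in edgeR 4.0.16 under R 4.3.3. Genes with at least 1 CPM in 2 or more libraries of a fit were tested and p-values were adjusted by Benjamini-Hochberg over all of them. SE is the log2 fold change divided by the square root of F. Permutation tests were exact, and a floor of 3 counts allows only for counting error in the group at 0. Scripts were tested on simulated data. Alternatives were DESeq2 1.42.0, limma 3.58.1, other scaling and filters, glmTreat, a fit of only the groups compared, a replicate block and leaving out libraries. Blocking by clone and the DESeq2 test against a 2-fold change were added after seeing the data. As no clone has both genotypes, the block by clone compares only the clones of replicate 2 (C17 and C63) where d3ko is set against d3con or d0ko against d0con.

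The 8 genes, the gene lists and the ratios were chosen with earlier results of these data known. Genes of the lists were named by a rule, at most 2 called per direction and comparison, with the largest change, no overlap and a mean of at least 5 TPM in the higher group. Wnt3 and Bmp4 between genotypes, Pdgfra in ko, Kdr in con and the trophoblast markers were named after their values were seen. Neighbours are the genes with the highest Pearson r over 14 libraries. Gene positions and promoters are from RefSeq, overlaps of exons from GENCODE.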

Additional observations from a re-analysis of the deposited data

How the results depend on the processing

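Depth limited Msgn1, which had 32 reads in d3ko and 0 in d3con, and T, Tbx6, Mesp1 and Evx1 in the doxycycline libraries. None of the 7 genes tested was called between genotypes at day 3 or day 0, or in the interaction, under any alternative run. At the shares of all genes called there this is no result about the 7. The 5 genes called higher in d3con over d0con and the 6 in d3ko over d0ko were fewest when 1 day 0 library of the group was left out. Such a fit leaves 1 library in that group, and fewer of all genes were called there as well. For d3ko over d0ko the count was 2 in the edgeR test against a 2-fold change and 3 with only these groups fitted by edgeR (2.49% and 6.52% of all genes higher). Eomes in d2-FVFp, the 1 gene called, gave 0 against a 2-fold change with glmTreat or with DESeq2 (2.12% and 1.71% of all genes higher). It also lost its call when 1 d2-FVFn library was left out, which leaves 1 library in that group. Evx1 in d3ko over d0ko lost its call in 15 of 23 alternatives and Tbx6 in 10 of 23, while Tbx6 in d3con over d0con gained one in 8 of 23. The cause was not tested.

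Same-numbered libraries of d3ko and d3con deviated together with r = 0.56, 0.3 and -0.01 for numbers 1, 2 and 3, so that the numbers were not taken to pair them. For d2-FVFp and d2-FVFn, sorted fractions of T119 cells, r was 0.29, and the main fit did not pair them either. With the replicate block 6 genes were called in d3con over d0con (Tbx6 at 2.68, edgeR adjusted p = 0.0484), 6 in d3ko over d0ko and 1 in d2-FVFp. In d2-FVFp against d2-FVFn this block called 9.06% of all genes higher and 2.51% lower, against 6.96% and 1.47% without it. The block by clone gave 6 and 5 for the first 2. In d0ko against d0con, where this block compares only the clones of replicate 2, it gave 0.25 for Eomes, 0.13 for Mixl1 and 0.2 for Mesp1, against negative values without it. Evx1, at 0.00 there, was at -0.02 with DESeq2, median-of-ratios scaling or no filter, 0 with a mean count of at least 10 and -0.01 with DESeq2 against a 2-fold change.

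With 1 library, or replicate 2 of both day 3 groups, left out (the latter giving -0.08 for Tbx6 in d3ko over d3con, -0.12 for its interaction and -0.16 for Mesp2 in d3ko over d0ko), log2 fold changes of d3ko over d3con ran from -0.57 to 2.78 for T, -0.69 to 1.5 for Tbx6 and -0.91 to 1.86 for Mesp1, and Mesp2 in d3ko over d0ko from -0.17 to 1.02. For d0ko over d0con they ran from -0.66 to 1.10 (T), -0.30 to 0.03 (Eomes), -0.50 to 0.49 (Mixl1), -0.17 to 0.21 (Tbx6), -1.32 to 1.49 (Mesp1), -0.73 to 0.43 (Mesp2) and -0.42 to 0.49 (Evx1). For the interaction they ran from -0.89 to 2.46 (T), -0.06 to 0.94 (Mixl1), -0.73 to 1.46 (Tbx6) and -0.61 to 2.44 (Mesp1). Mixl1 was called in d3con and in d3ko over day 0 under all alternatives, and Eomes in d3con under all.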
